A study of Mus musculus with 22 samples.

Results

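Oligodendrocyte precursor cells (OPC) of the hypothalamus were described in scRNA-seq of whole cells from 12 male ob/ob mice. The cells were those that the deposited metadata place in cluster 5, which held 3814 of 54890 cells. All mice were leptin-deficient, about 11 weeks old, and received 1 intracerebroventricular (icv) injection. Of these, 6 received FGF1 (3 µg) and 6 received PBS vehicle with food limited to what the FGF1 mice ate (pair-fed, PF), and cells were taken on Day 5. Each mouse was 1 library and 1 replicate. FGF1 replicates 7, 28, 6, 21, 10 and 36 gave 257, 214, 228, 178, 90 and 410 cells of cluster 5. Vehicle replicates 29, 27, 22, 20, 35 and 25 gave 231, 232, 480, 546, 247 and 701. The cells of 1 mouse summed to 170207 to 906475 unique molecular identifiers (UMIs), and the median cell held 996 to 1983 UMIs. The metadata give 6 batches of 1 FGF1 and 1 vehicle mouse each, without stating what a batch was.

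OPC are the dividing progenitors of the oligodendrocyte lineage and persist in the adult brain. Platelet-derived growth factor, acting on its receptor Pdgfra, keeps them in cycle, and FGFs are classical mitogens of the same cells. As an OPC differentiates it switches off Pdgfra and Cspg4 and passes through a committed oligodendrocyte precursor (COP) state, marked by Gpr17, Neu4, Bmp4 and Enpp6, before it makes myelin proteins.

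Cluster 5 carried all 5 OPC markers. Pdgfra UMIs were found in 75.1% of its cells, against 1.55% of the cells of COP-like cluster 9. The other markers were found in 55.3% (Lhfpl3), 45.8% (Pcdh15, a cadherin), 35.9% (Cspg4, the NG2 proteoglycan) and 31.6% (C1ql1, a secreted C1q-like protein) of its cells. Gpr17 was found in 52.4% and Neu4 in 35.1%, whereas Bmp4 and Enpp6 were found in 0.157% and 0.131%. Cluster 5 was therefore called OPC-like by its markers. Cluster 17, of 115 cells, carried Pdgfra in 80.9% of its cells and was led by Ube2c, Top2a and Cenpf, genes of mitosis. It held 104 cells of FGF1 mice and 11 of vehicle mice. OPC-like cells with RNA of mitosis thus also lay outside cluster 5. The sizes of clusters 5 and 17 are not compared between groups, because a defining marker of cluster 5 differed between them (below).

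RNA of other cell types was present in cluster 5. Slc1a2 and Aldoc, abundant astrocyte genes, were found in 77.5% and 70.8% of its cells, against 95.1% and 90.6% of astrocyte-like cluster 1 and 62.8% and 56.1% of microglia-like cluster 8. The summed level of 8 neuron markers was 1287 to 1484 counts per 1e6 UMIs (CPM) in vehicle mice and 1059 to 1275 in FGF1 mice, and the groups did not overlap. The 7 astrocyte markers summed to 2643 to 3673 CPM in vehicle mice and 2497 to 3269 in FGF1 mice. The 6 microglia markers summed to 68.7 to 152 CPM and 125 to 317 CPM, and the 5 tanycyte markers to 72.6 to 137 CPM and 88.1 to 175 CPM. The 6 mature oligodendrocyte markers summed to 146 to 566 CPM and 250 to 349 CPM. None of these markers was at 0 over all cells of cluster 5, and their part in the differences below was not tested except where stated.

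FGF1 was followed by changes in both directions. UMIs were summed per mouse, and edgeR's quasi-likelihood test called 125 of 5235 genes (2.39%) at a false discovery rate (FDR) below 0.05 over all genes tested. Of these, 63 (1.20%) were higher and 62 (1.18%) lower in FGF1 mice, and the median log2 fold change of all genes was -0.0043. The values of the 6 FGF1 and 6 vehicle mice did not overlap for 84 genes (1.60%). With DESeq2, 126 of 2529 genes were called, of which 91 were shared, and the split was 84 higher and 42 lower. The count rested on single mice, since it was 33 without FGF1 replicate 7 and 280 without vehicle replicate 35. With cluster 17 merged in, 115 of the 125 genes stayed called, and with the batch as a term 116 did.

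**Figure D1:**
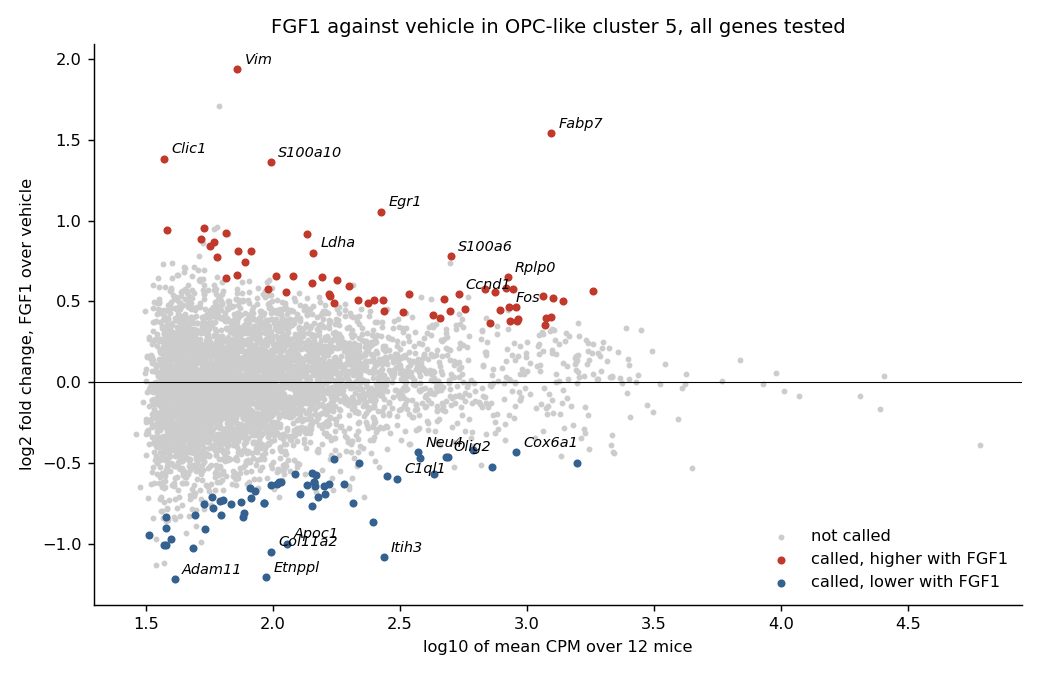
Log2 fold change of FGF1 over vehicle (y) against the log10 of the mean CPM over 12 mice (x) for the 5235 genes tested in OPC-like cluster 5. Red points are the 63 genes called higher and blue points the 62 called lower, and Fabp7 combined a high level with a large rise.

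Fabp7 had the lowest FDR of all genes and a 2.91-fold rise. Fabp7 encodes a brain fatty acid binding protein of radial glia, astrocytes and OPC. It was 555, 580 and 791 CPM (lowest, median and highest) in vehicle mice and 1352, 1749.5 and 2362 CPM in FGF1 mice. The lowest FGF1 mouse was thus above the highest vehicle mouse, and the FGF1 mouse was higher in 6 of 6 batches. The log2 fold change was 1.54 (SE 0.13, FDR = 1.29e-10, edgeR). The gene lies on the plus strand of chromosome 10 from 57784881 to 57788450 in GRCm38.

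To see whether the rise lay in few or many cells, each cell was thinned to 800 UMIs, which kept 1322 FGF1 and 2354 vehicle cells. Here and below, thinning was 1 random draw per set of cells and was not repeated with other seeds. A Fabp7 UMI was then found in 31.1% to 42.5% of the cells of a vehicle mouse and in 57.4% to 73.6% of those of an FGF1 mouse (42.7% to 70.5% and 63.6% to 85.6% without thinning). At least 3 Fabp7 UMIs were found in 0.734% to 3.15% of vehicle cells and 11.5% to 26.7% of FGF1 cells, and both shares separated the groups after thinning. Without thinning, at least 3 Fabp7 UMIs were found in 3.02% to 21.1% and 18.4% to 61.1% of cells, and the groups overlapped for both shares. In oligodendrocyte-like cluster 2, where the gene is low, 4.22% to 12.2% of vehicle and 6.00% to 10.8% of FGF1 cells had a Fabp7 UMI, with median depths of 1083 to 2271 UMIs. The shares in cluster 5 were above that background in every mouse.

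The promoter of Fabp7 is shown because this gene had the lowest FDR. It was copied from RefSeq (GRCm38.p6, chr10:57784673-57784972, plus strand) and holds no match to TGANTCA, the letters bound by AP-1 (Fos and Jun). Clic1, a called gene, is shown beside it with its 1 match in capitals (GRCm38.p6, chr17:35049993-35050292, plus strand). Both stretches surround the gene start in RefSeq, and the GENCODE genes start earlier, at 57784881 for Fabp7 and 35049966 for Clic1. By GENCODE the Fabp7 stretch thus runs into the gene and that of Clic1 lies wholly within it.
Fabp7: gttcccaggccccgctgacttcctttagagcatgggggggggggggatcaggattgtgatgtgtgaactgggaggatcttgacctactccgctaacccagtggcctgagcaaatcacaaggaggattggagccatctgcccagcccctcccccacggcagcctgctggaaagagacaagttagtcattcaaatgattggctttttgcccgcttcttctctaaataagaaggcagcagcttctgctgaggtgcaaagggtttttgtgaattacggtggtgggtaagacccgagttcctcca
Clic1: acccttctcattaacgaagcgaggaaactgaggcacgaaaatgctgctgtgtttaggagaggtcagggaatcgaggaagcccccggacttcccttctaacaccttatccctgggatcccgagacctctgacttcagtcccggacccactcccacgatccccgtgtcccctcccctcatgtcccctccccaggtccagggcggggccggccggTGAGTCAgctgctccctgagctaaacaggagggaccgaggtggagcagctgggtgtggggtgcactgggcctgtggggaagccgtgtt
Both strands read the same for these letters, apart from the middle base. They were in 7.93% of all 27025 promoters of 300 bases, in 4.04% of the 4063 of tested genes and in 2 of the 45 of genes called higher (4.44%).

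**Figure D2:**
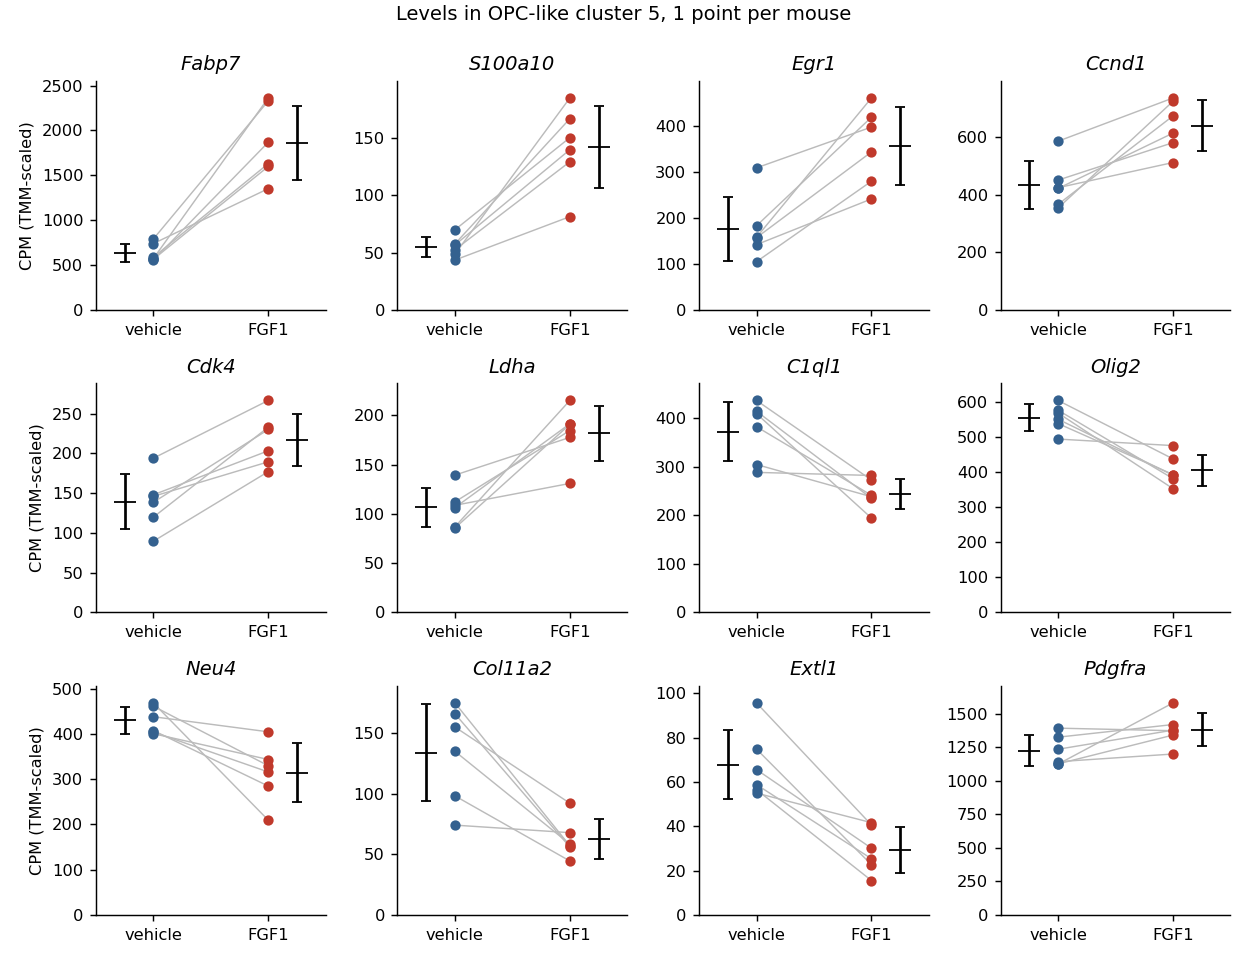
TMM-scaled CPM (y, from 0) of 12 genes in OPC-like cluster 5, with 1 point per mouse, vehicle in blue and FGF1 in red, grey lines between the mice of a batch, and bars for the mean and SD of 6 mice. Fabp7, S100a10, C1ql1, Olig2 and Extl1 did not overlap between groups, whereas Pdgfra did.

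Ccnd1 and Cdk4, which drive the G1 phase of the cell cycle, rose. Of 10 genes for G1 cyclins, their kinases and inhibitors, 7 were tested, 2 rose and none fell, beside 1.20% of all genes that rose (median log2 fold change 0.26, against -0.0043 for all genes, and 5 of 7 positive). Ccnd1, which encodes cyclin D1, was 354, 423 and 586 CPM in vehicle mice and 512, 644 and 736 CPM in FGF1 mice, a 1.46-fold rise (log2 0.55, SE 0.12, FDR = 0.00969). Its groups overlapped at 1 vehicle mouse, and the FGF1 mouse was higher in 6 of 6 batches. Cdk4, the kinase partner of cyclin D1, was 89.5, 142 and 194 CPM against 177, 217 and 267 CPM (1.55-fold, FDR = 0.0204). The call on Cdk4 was lost in 4 of 20 alternatives. Over all cells of a group, Cdk4 was also higher with FGF1 in 7 of 8 other clusters compared, and Ccnd1 in 4 of 8. Cdk4 was 118 and 187 CPM (vehicle and FGF1) in cluster 5 and 201 and 383 CPM in COP-like cluster 9. The rise of Cdk4 was thus not confined to cluster 5. Ccnd2 and Cdkn2d did not pass the test (log2 0.43 and 0.26). Of the S and G2/M genes, only 2 of 45 passed the filter on low counts, and neither was called.

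The share of cycling cells was therefore counted per mouse. A cell counted with at least 2 UMIs of the S and G2/M list after thinning to 800 UMIs. In FGF1 replicates 7, 28, 6, 21, 10 and 36 this was 4.07%, 4.15%, 4.63%, 10.8%, 7.78% and 7.07% of cells, and in vehicle replicates 29, 27, 22, 20, 35 and 25 it was 1.45%, 2.86%, 4.20%, 2.25%, 2.43% and 1.91%. FGF1 mice were higher in 6 of 6 batches, and 2 FGF1 mice lay just below the highest vehicle mouse. The means were 6.41% ± 2.65 and 2.52% ± 0.953 (SD, n = 6 each, exact two-sided permutation test, p = 0.00649, adjusted p = 0.0130 over 4 shares). In cluster 2, which should hold no dividing cells, the same count gave 0.557% to 3.23% in FGF1 mice and 0.573% to 2.25% in vehicle mice, so the share of vehicle mice in cluster 5 lay partly at background. Without thinning the shares were 7.46% to 20.0% and 4.42% to 12.6%, and the adjusted p was 0.0693. With 3 UMIs required the adjusted p was also 0.0693. With the mice paired within batch the p was 0.0312, the smallest that exchanges within 6 pairs can give, and the adjusted p was 0.0625, so the call was lost. With cluster 17 merged in and cells thinned by a new random draw, the shares were 9.57% to 22.6% and 2.49% to 5.65%, which did not overlap (adjusted p = 0.00433).

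Before thinning, the UMIs of the S and G2/M list came from both early and late genes of the cycle. Hmgb2 alone gave 180 of 842 list UMIs in FGF1 cells and 243 of 943 in vehicle cells (96.65 and 73.35 CPM). In cluster 5, Pcna, the DNA polymerase clamp, had 47.3 CPM over all FGF1 cells and 30.2 CPM over all vehicle cells, and the 6 genes Mcm2 to Mcm7 of the replicative helicase summed to 115 and 72.7 CPM. A set of 8 mitotic genes (Mki67, Top2a, Cenpf, Cenpe, Ube2c, Nusap1, Pbk and Prc1), chosen after their values were seen, gave 64 UMIs of 1862364 in FGF1 cells and 21 of 3312961 in vehicle cells. In cluster 17 the same genes gave 929 UMIs of 177369 in FGF1 cells and 60 of 21190 in vehicle cells. The level of mitotic RNA in cluster 5 was far below that in cluster 17. Cluster 17 was led by some of these same genes, so its higher level is no independent result.

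Of the 5 OPC markers, C1ql1 fell and the others did not pass the test, beside 1.18% of all genes that fell. C1ql1 was 288, 396 and 436 CPM in vehicle mice and 194, 240 and 282 CPM in FGF1 mice, without overlap (log2 fold change -0.60, SE 0.13, FDR = 0.00724). Over all cells of a group, C1ql1 was also lower with FGF1 in all 8 other clusters compared, though most held little of it. It was 337 and 229 CPM (vehicle and FGF1) in cluster 5 and 72.9 and 40.3 CPM in COP-like cluster 9. The fall of C1ql1 was thus not confined to cluster 5. Pdgfra was 1224 ± 114 CPM in vehicle and 1382 ± 123 CPM in FGF1 mice (SD, n = 6, FDR = 0.410). Lhfpl3, Pcdh15 and Cspg4 had log2 fold changes of 0.35, 0.03 and -0.29 (FDR of 0.0763, 0.930 and 0.183). The summed level of the 5 markers was 2584 to 3130 CPM in vehicle and 2785 to 3466 CPM in FGF1 mice.

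Of 20 surface and matrix genes of OPC, all tested, 1 rose and none fell, beside 1.20% of all genes that rose (median log2 -0.04). The riser was Ncan, neurocan, a chondroitin sulfate proteoglycan, at 211, 222 and 261 CPM in vehicle and 257, 328 and 368 CPM in FGF1 mice (log2 0.44, FDR = 0.0450). The call on Ncan was lost in 12 of its 20 alternatives. The 4 genes of the list with the highest levels, Ptprz1, Cspg5, Cntn1 and Bcan, had log2 fold changes of 0.34, 0.17, 0.22 and -0.36 and did not pass.

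Among lineage transcription regulators, Olig2 fell. Of 32 genes 25 were tested, 1 fell and none rose, beside 1.18% of all genes that fell (median log2 0.05). Olig2, a basic helix-loop-helix factor that specifies the lineage, was 495, 560 and 605 CPM in vehicle mice and 353, 393 and 476 CPM in FGF1 mice, without overlap (log2 -0.46, SE 0.11, FDR = 0.0160). The call on Olig2 was lost in 2 alternatives and kept in 18. The neighbour and paralog of Olig2, Olig1, did not pass (log2 -0.10, FDR = 0.700), nor did Tcf4 and Nfia (log2 0.05 each). Olig2 lies on chromosome 16 from 91225457 to 91228677 in GRCm38.

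Among markers of commitment, Neu4 fell. Of 28 committed precursor genes 16 were tested, Neu4 alone was called, beside 1.18% of all genes that fell, and 6 of 16 had positive fold changes (median log2 -0.14). Neu4, a sialidase, was 400, 423 and 468 CPM in vehicle and 209, 323 and 405 CPM in FGF1 mice (log2 -0.43, SE 0.12, FDR = 0.0452), and its call was lost in 10 of 20 alternatives. Gpr17, a receptor that marks the COP state, was 655, 762 and 926 CPM against 580, 609 and 659 CPM and did not pass (log2 -0.32, FDR = 0.0901). Sirt2 and Bcas1 had log2 fold changes of 0.16 and 0.06.

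Counted per cell, a UMI of Gpr17, Bmp4, Neu4 or Enpp6 was found in 43.5%, 47.2%, 50.5%, 44.9%, 42.2% and 43.4% of thinned cells of FGF1 replicates 7, 28, 6, 21, 10 and 36. In vehicle replicates 29, 27, 22, 20, 35 and 25 it was found in 54.1%, 51.0%, 58.8%, 56.9%, 60.3% and 53.0%. The groups did not overlap, and the means were 45.3% ± 3.05 and 55.7% ± 3.60 (SD, n = 6 each, exact permutation test, p = 0.00216, the smallest that all splits of the 12 mice can give, adjusted p = 0.00866). In astrocyte-like cluster 1 the share was 0% to 3.33% in FGF1 and 0.418% to 1.33% in vehicle mice (median depths of 957 to 1436 UMIs). Without thinning the groups overlapped, at 54.5% to 74.4% and 59.9% to 89.5% (adjusted p = 0.170), and with cells thinned to 500 UMIs the adjusted p was 0.0649. With cluster 17 merged in and cells thinned by a new random draw, the groups overlapped, with medians of 47.5% in FGF1 and 55.2% in vehicle mice. The difference was -7.87 points (adjusted p = 0.0303). The merge added 10 thinned vehicle cells, while the vehicle range went from 50.95% to 60.32% before to 47.87% to 64.92% after. The merge and the draw were not told apart, and the lack of overlap of the shares in cluster 5 rests on 1 draw. With no draw, Gpr17, Bmp4, Neu4 and Enpp6 summed to 770 to 950 CPM in FGF1 and 961 to 1282 CPM in vehicle mice. These sums were not tested. With the mice paired within batch the share was lower in FGF1 mice in 6 of 6 pairs, but the adjusted p was 0.0625 and the call was lost. The paired exact test gave p = 0.0312 before adjustment. That is the smallest that exchanges within 6 pairs can give, so this test could give no stronger result. In cluster 5 Bmp4 and Enpp6 were nearly absent (above), so the share rests on Gpr17 and Neu4. It counts cells with such a UMI, not cells shown to be committed. The lower share holds for cluster 5 alone. Most thinned FGF1 cells with such a UMI lay in COP-like cluster 9 (1415, against 598 in cluster 5), which held 1583 FGF1 and 164 vehicle cells. Over clusters 5 and 9 together the direction turned, with a committed precursor UMI in 2013 of 2871 thinned FGF1 cells (70.1%, 59.97% to 79.4% by mouse) and 1462 of 2517 vehicle cells (58.1%, 54.4% to 63.6%). That count was chosen after seeing the data and is given with no test, because these genes also define cluster 9. Cells of cluster 5 with and without a Gpr17 UMI were also set side by side, as a description with no test. In vehicle mice the median Neu4 level was 382 CPM with and 383 CPM without, and Pdgfra was 1154 and 1153 CPM. By these medians a Gpr17 UMI did not mark vehicle cells with more Neu4 or less Pdgfra. In FGF1 mice Neu4 was 345 and 285 CPM and Pdgfra 1308 and 1267 CPM. There Tns3 was 182 and 112 CPM, higher with Gpr17 in 6 of 6 mice, and Ccnd1 was 493 and 648 CPM, higher with Gpr17 in 0 of 6. Fabp7 was 1294 and 1682 CPM, higher with Gpr17 in 1 of 6 FGF1 mice. In vehicle mice the levels were 142 and 136 CPM for Tns3 (higher in 4 of 6), 388.4 and 391.6 CPM for Ccnd1 (3 of 6) and 531 and 558 CPM for Fabp7 (3 of 6). These genes were picked from a longer list set side by side in this way. In FGF1 mice Bcas1, Sox10 and Fyn were higher with Gpr17 in 4, 4 and 3 of 6.

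**Figure D3:**
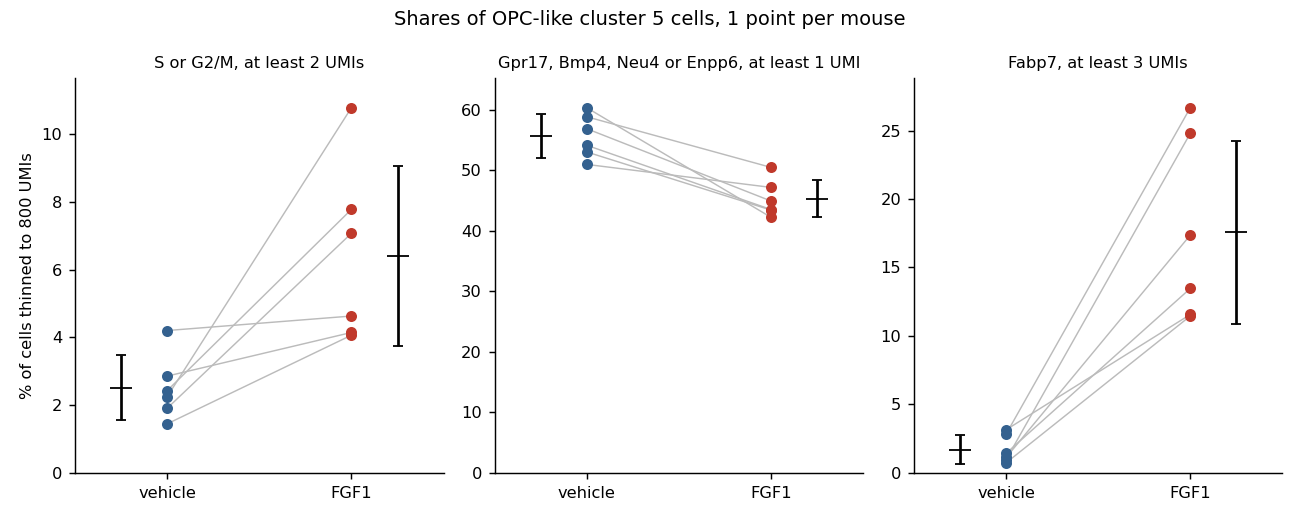
Share of OPC-like cluster 5 cells (y, % of cells thinned to 800 UMIs) with at least 2 S or G2/M UMIs, at least 1 committed precursor UMI or at least 3 Fabp7 UMIs, with 1 point per mouse, grey lines between the mice of a batch, and the mean and SD of 6 mice. The first and last were higher and the middle one lower in FGF1 mice in 6 of 6 batches.

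Among myelin genes, 6 of 16 were tested and none was called, beside 2.39% of all genes (median log2 0.06). Mbp was 783 to 2811 CPM in vehicle and 1278 to 1861 CPM in FGF1 mice, and Mobp and Cnp had log2 fold changes of -0.36 and 0.18.

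Receptors and feedback genes of FGF signalling were examined on Day 5. Of 30 growth factor receptors and ligands 15 were tested and none was called, beside 2.39% of all genes (median log2 -0.07). Those at an unadjusted p under 0.05 numbered 4, beside 15.9% of all genes. The 4 with the highest levels were Pdgfra, Ntrk2, Fgfr3 and Ntrk3, with log2 fold changes of 0.17, -0.06, -0.55 and 0.20. Fgfr3, an FGF receptor that is also an astrocyte marker, had an FDR of 0.428 but 0.0420 with the batch as a term, so that fit called it lower. Of 24 MAPK feedback and ETS genes, which ERK signalling induces, 14 were tested and none was called, beside 2.39% of all genes (median log2 -0.10, range -0.39 to 0.06). At an unadjusted p under 0.05 they numbered 1, beside 15.9% of all genes, and the 4 highest, Spred1, Etv5, Etv1 and Spry2, had log2 fold changes of -0.09, -0.25, -0.05 and 0.05.

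Of 26 immediate early genes 13 were tested, 2 rose and none fell, beside 1.20% of all genes that rose (median log2 0.29). Egr1, a zinc finger factor, was 105, 158 and 309 CPM in vehicle and 241, 370 and 461 CPM in FGF1 mice (log2 1.06, SE 0.23, FDR = 0.0313). The groups overlapped, but the FGF1 mouse was higher in 6 of 6 batches, and the FDR was 4.76e-08 with the batch as a term. Its call was lost in 8 of 20 alternatives. Fos, a subunit of AP-1, was 561, 644 and 1014 CPM against 852, 910 and 1227 CPM (log2 0.47, FDR = 0.0393), was higher in 5 of 6 batches, and lost its call in 9 of 20. Jun and Zfp36l1 did not pass (log2 0.13 and -0.05). Over all cells of a group, Egr1 was higher with FGF1 in 4 of 8 other clusters compared and Fos in 5 of 8. Egr1 was 141 and 297 CPM (vehicle and FGF1) in cluster 5 and 1900 and 1530 CPM in microglia-like cluster 8.

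The list of reactive and injury-type genes had a median log2 fold change of 0.75, against 0.93 for the 2 tested microglia markers and -0.0043 for all genes. Of its 33 genes 13 were tested, 6 rose and none fell, beside 1.20% of all genes that rose. Vim, an intermediate filament protein, was 21.8, 28.4 and 34.5 CPM in vehicle and 74.5, 112 and 171 CPM in FGF1 mice, the largest called rise (3.83-fold, log2 1.94, SE 0.21, FDR = 1.23e-08). S100a10 and S100a6, calcium-binding proteins, rose 2.57-fold and 1.72-fold, and Clic1, a chloride channel protein, rose 2.61-fold. Tagln2, an actin-binding protein, and Anxa5, annexin A5, rose 1.89-fold and 1.68-fold, and Anxa5 fell short of significance in 5 of 20 alternatives. The 4 members with the highest levels, Cst3, S100a1, S100a16 and Tmsb10, had log2 fold changes of 0.01, -0.29, -0.19 and 0.32. Gfap, named after its values were seen, had a log2 fold change of 1.71 that did not pass (FDR = 0.184) and reached 263 CPM in 1 FGF1 mouse.

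Several of these genes were also higher with FGF1 outside cluster 5. A Vim UMI was found in 1.31% to 2.90% of thinned vehicle cells and 2.85% to 9.58% of thinned FGF1 cells of cluster 5. In FGF1 cells the share was 2.79% to 10.8% in oligodendrocyte-like cluster 2, where Vim rose too (log2 1.87, FDR = 0.000143), 0% to 5.21% in cluster 1 and 0.575% to 3.90% in cluster 9. The ranges of cluster 5 overlapped each of these, so the share was not read as expression of Vim in OPC. Over all cells of a group, Vim was 26.3 and 102 CPM (vehicle and FGF1) in cluster 5, 30.1 and 104 CPM in cluster 2, 31.9 and 140 CPM in microglia-like cluster 8, and 334 and 718 CPM in tanycyte-like cluster 0. S100a6 was 334 and 599 CPM in cluster 5 and 306 and 728 CPM in cluster 2. Tagln2 stood out more from cluster 2, at 85.1 and 168 CPM against 11.9 and 30.6 CPM, as did S100a10, at 50.7 and 135 CPM against 26.2 and 53.7 CPM. For none of these 6 genes did the FGF1 effect in cluster 5 differ from that in clusters 9, 2 or 1 at an FDR below 0.05.

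**Figure D4:**
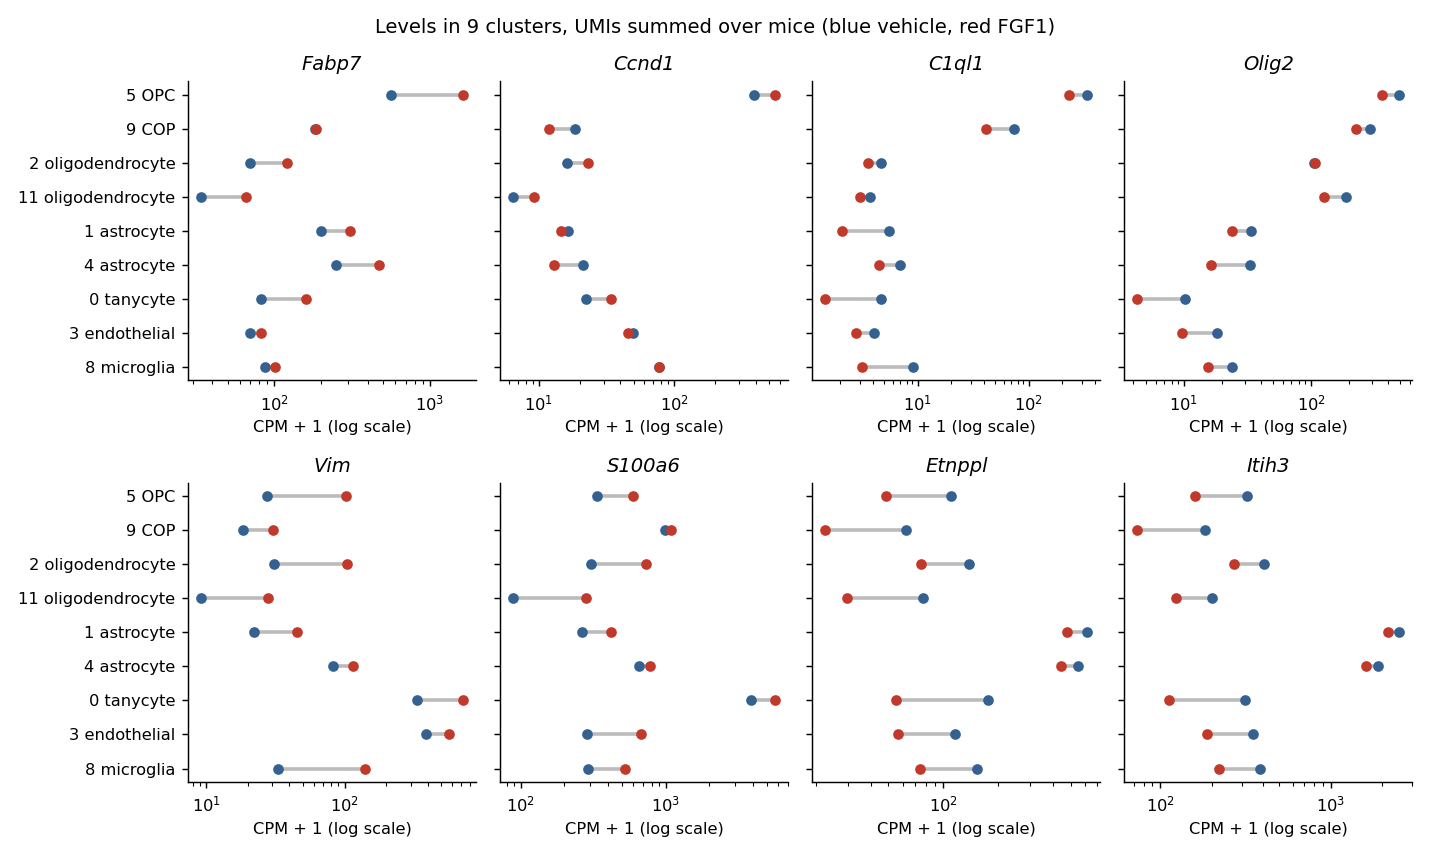
CPM + 1 on a log axis (x) of 8 genes in 9 clusters (y), with UMIs summed over the 6 vehicle mice (blue) or the 6 FGF1 mice (red). Fabp7 and Vim were higher and Etnppl lower in the FGF1 cells of all 9 clusters, and among these 9 Fabp7 was highest in cluster 5 (567 and 1640 CPM). OPC-like cluster 17, not shown, had more Fabp7, with 1270 CPM in its 11 vehicle cells and 1970 CPM in its 104 FGF1 cells.

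Some heat shock and ribosomal protein genes rose. Of 20 heat shock genes 16 were tested, 3 rose and none fell, beside 1.20% of all genes that rose (median log2 0.30). The chaperones Hspa8, Hsp90aa1 and Hsp90b1 rose 1.38-fold, 1.36-fold and 1.35-fold. Their calls were lost in 1, 5 and 10 of 20 alternatives. Over all cells of a group, they were also higher with FGF1 in 7, 6 and 8 of 8 other clusters compared. The summed level of the list was 3438 to 5094 CPM in vehicle and 5013 to 5801 CPM in FGF1 mice. Of 85 ribosomal protein genes 84 were tested, and 5 rose, beside 1.20% of all genes that rose (median log2 0.13). The risers were Rplp0, Rps4x, Rps9, Rpl7 and Rpl10a. Rpl10a lost its call in 15 of 20 alternatives, Rpl7 in 11 and Rps9 in 6. Counted the same way, Rplp0, Rps4x, Rps9, Rpl7 and Rpl10a were higher with FGF1 in 8, 7, 7, 8 and 6 of 8 other clusters. The rises of the chaperones and ribosomal genes were thus not confined to cluster 5. The summed level of the ribosomal list overlapped between groups, at 98061 to 124470 CPM in vehicle and 114100 to 130780 CPM in FGF1 mice. Rplp0 was 580, 643 and 745 CPM against 896, 1024 and 1216 CPM, without overlap (FDR = 0.000170). Reads of these genes can be shared with processed copies in the genome, so single ribosomal genes are uncertain.

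The metabolic lists held calls in both directions. Of 20 glycolysis genes 14 were tested and 2 were called, of 82 tested for oxidative phosphorylation 1, and of 11 glucocorticoid-responsive genes 1, beside 2.39% of all genes. Ldha, lactate dehydrogenase A, rose 1.74-fold, from 85.7, 108 and 139 CPM to 131, 188 and 215 CPM (FDR = 0.00143), and Pfkm, muscle-type phosphofructokinase, fell (log2 -0.65, FDR = 0.0499) with 12 of 20 alternatives losing the call. Of 93 nuclear genes of oxidative phosphorylation 82 were tested and Cox6a1 alone fell, from 927, 1009 and 1233 CPM to 539, 799 and 863 CPM, without overlap (FDR = 0.0241), and its call was lost in 6 of 20 alternatives. Of 24 glucocorticoid-responsive genes 11 were tested, and Tsc22d3, the glucocorticoid-induced leucine zipper, fell from 113, 156 and 220 CPM to 69.8, 104 and 112 CPM (FDR = 0.0142). Over all cells of a group, Cox6a1 and Tsc22d3 were also lower with FGF1 in all 8 other clusters compared. In astrocyte-like cluster 1 they were 908 and 694 CPM (Cox6a1, vehicle and FGF1) and 647 and 421 CPM (Tsc22d3). The falls of these genes were thus not confined to cluster 5. Ldha was higher with FGF1 in 6 of the 8 and Pfkm in 1.

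No gene was called in the lists for cholesterol and fatty acid synthesis (26 tested), channels and transmitter receptors (32), adhesion and guidance (30), Notch, Wnt and BMP (13), the insulin and IGF system (7), antigen presentation (8) and the mitochondrial genome (13). Of all genes 2.39% were called. By an unadjusted p under 0.05 these lists held 4, 7, 5, 1, 2, 1 and 1 genes, beside 831 of all 5235 (15.9%).

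**Figure D5:**
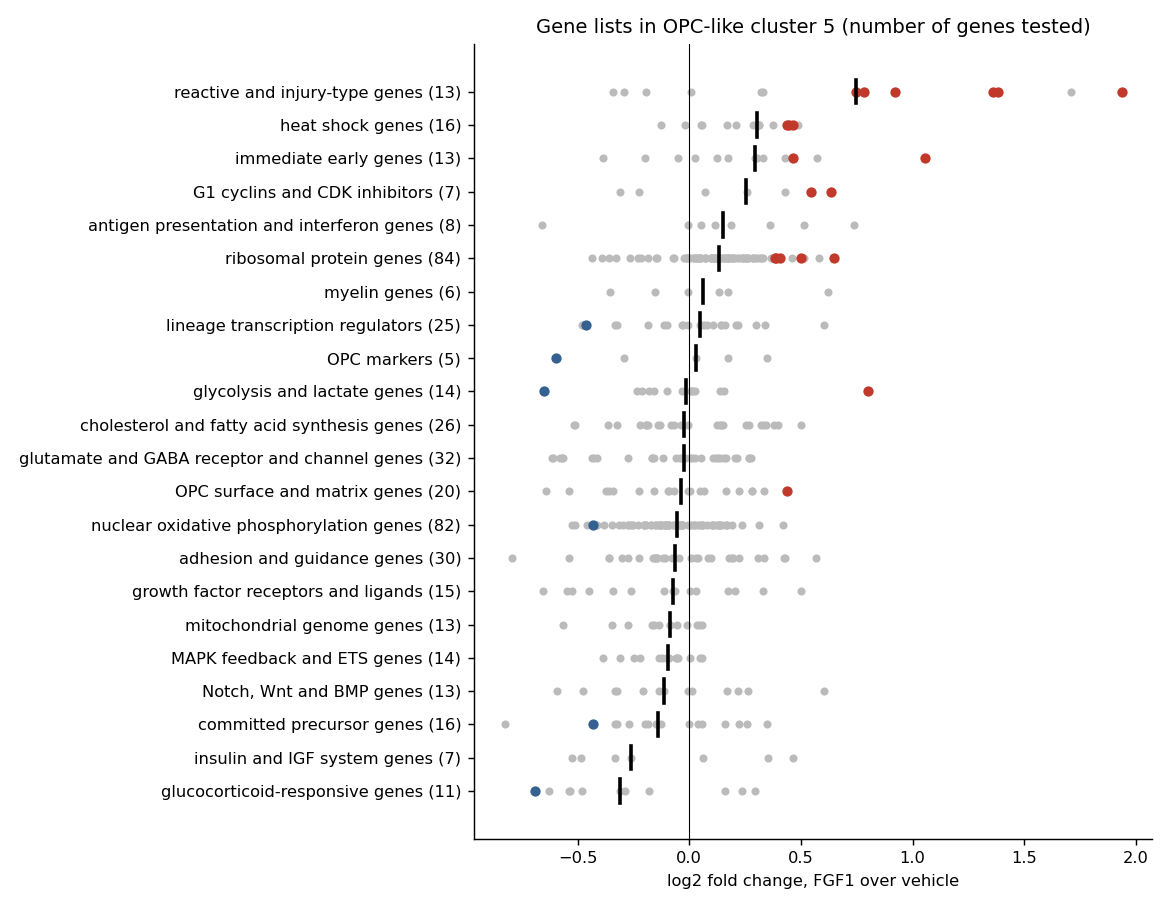
Log2 fold change of FGF1 over vehicle (x) of each tested gene in 22 gene lists (y, with the number tested), called genes in red (higher) or blue (lower), others in grey, and the list's median as a black bar. The reactive list had 6 called genes, and the MAPK feedback list none.

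The largest falls held genes with higher levels in other clusters. Etnppl, an ethanolamine-phosphate lyase of astrocytes, fell 2.31-fold and Itih3, a hyaluronan-binding protein, fell 2.12-fold, while Apoc1, an apolipoprotein, fell 2.00-fold. In cluster 5, Etnppl was 110 and 47.8 CPM (vehicle and FGF1 cells), against 617 and 478 CPM in astrocyte-like cluster 1, 138 and 74.3 CPM in cluster 2 and 152 and 73.6 CPM in cluster 8. Itih3 was 321 and 159 CPM against 2520 and 2150 CPM in cluster 1 and 383 and 219 CPM in cluster 8. Both were thus lower in FGF1 cells of every cluster shown, and were highest in astrocytes. Snap25, a synaptic protein on the neuron list, fell 1.56-fold, beside the fall in summed neuron markers given above.

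Among the other falls, Col11a2, a collagen chain, was 74.0, 145 and 175 CPM in vehicle and 44.4, 57.6 and 92.0 CPM in FGF1 mice (log2 -1.05, SE 0.19, FDR = 0.00143). In all cells it was 128 and 62.8 CPM in cluster 5, 143 and 110 CPM in cluster 9 and at most 35.5 CPM in the oligodendrocyte-like clusters 2 and 11. Extl1, an exostosin-like glycosyltransferase, was 55.0, 62.2 and 95.7 CPM against 15.5, 27.8 and 41.7 CPM, without overlap (FDR = 0.0142). In all cells Extl1 was 56.1 and 29.0 CPM in cluster 5 and 43.8 and 56.5 CPM in astrocyte-like cluster 1 (vehicle and FGF1 cells). Adam11, Maf, Flywch2 and Usp48 had log2 fold changes of -1.22, -1.01, -1.01 and -0.95. Over all cells of a group, Adam11 and Flywch2 were also lower with FGF1 in all 8 other clusters compared. Maf and Usp48 were higher with FGF1 in 5 and 3 of these 8. Gm5914, a noncoding gene, fell as well (log2 -0.97), but its exons overlap those of Agrp on the same strand, so its reads are uncertain. Among the rises not yet named, Fbl, fibrillarin of the nucleolus, and Vcam1, an adhesion molecule, rose 1.85-fold and 1.92-fold. The rises of 1500009L16Rik and Gm14305 were 1.94-fold and 1.90-fold, and exons of Gm14305 overlap those of Zfp973. The alternatives that lost and kept the call numbered 8 and 9 for Gm5914, 7 and 6 for Usp48, and 7 and 9 for Vcam1. They numbered 6 and 14 for Snap25, 6 and 12 for 1500009L16Rik, 4 and 13 for Maf, and 3 and 14 for Flywch2. For Adam11 they were 3 and 10, for Fbl 2 and 15, for Extl1 1 and 17, and for Gm14305 1 and 18.

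The effect of FGF1 in cluster 5 was compared with that in 3 other clusters of the same mice, with the mouse as a block. Against COP-like cluster 9 it differed for 92 of 6403 genes (1.44%), against oligodendrocyte-like cluster 2 for 67 of 7198 (0.931%) and against astrocyte-like cluster 1 for 59 of 8222 (0.718%). Cluster 9 held only 16 to 51 cells of a vehicle mouse and 174 to 372 of an FGF1 mouse, and cluster 1 held 40 to 813 cells of an FGF1 mouse. The split against cluster 9 turned with the scaling, from 31 positive and 61 negative with TMM to 41 and 19 with RLE, and the median of all genes moved from -0.12 to 0.03.

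Of the 125 genes called in cluster 5, 10 differed from cluster 9, 15 from cluster 2 and 17 from cluster 1. The 125 genes were picked for their effect in cluster 5, and the test of a difference used the same cluster 5 counts. That choice by itself favours a difference. The counts are thus not set against the 1.44%, 0.931% and 0.718% of all genes tested that differed from clusters 9, 2 and 1. The same limit holds for the genes named next, each of which was called in cluster 5. Fabp7 rose more in cluster 5 than in cluster 9, where its log2 fold change was 0.10 (difference 1.24, FDR = 7.07e-05, and 1.39 with RLE), and more than in cluster 1 (difference 0.93, FDR = 9.95e-06). The difference from cluster 2 was 0.82 and did not pass (FDR = 0.0652). Neu4 fell in cluster 5 and had a log2 fold change of 0.10 in cluster 9 (difference -0.65, FDR = 0.0103), but with RLE scaling the FDR was 0.113. Ldha rose in cluster 5 and had a log2 fold change of -0.14 in cluster 1 (difference 0.89, FDR = 0.00903). For Extl1 and Col11a2 the effect was lower in cluster 5 than in cluster 1 (differences of -1.40 and -1.63). Rplp0 rose more than in clusters 2 and 1 (differences of 0.50 each).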

How the data were processed

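Hypothalamic whole cells of 12 ob/ob mice were profiled by droplet scRNA-seq. The authors aligned reads to GRCm38 (mm10), with Cell Ranger 1.2 and Seurat named in the submitters' processing notes, and removed doublets and neurons before deposit, with Scrublet among the tools named in the study's methods. The deposited table holds UMI counts of 16304 genes in 54890 cells. The deposited metadata give cluster, mouse and batch, and the percent of mitochondrial and ribosomal UMIs per cell. No doublet caller was run here. Of 3797 barcodes in cluster 5, 17 occurred in more than 1 mouse.

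Cells of cluster 5 were taken from the metadata, and counts were summed per mouse. Groups came from the sample labels. Genes passing filterByExpr were tested with edgeR 4.0.16 (TMM, robust glmQLFit, glmQLFTest, no covariates), with Benjamini-Hochberg adjustment over all genes tested, in R 4.3.3. DESeq2 1.42.0 was an alternative. Interactions had mouse and cluster as terms. The fits were tested on simulated data. Levels are TMM-scaled CPM of cluster 5, or plain CPM where cells of a group were summed or list levels given. Standard errors are those implied by the F statistic. For the shares, the 2 groups of mice were set against each other with two-sided exact permutation tests (scipy 1.17.1), adjusted over 4 shares, of which the 2 on the size of cluster 5 were run and enter the adjustment but are not given, because C1ql1, a marker of the cluster, was called. Intervals between mice cover biological and technical spread together.

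Members and lists were chosen with earlier results of these data known. Named genes are the 10 largest called rises and falls among genes of at least 20 CPM, called list members, the 5 markers, and up to 4 members of a described list with the highest levels. Positions are from GENCODE vM21 (GRCm38), promoters from RefSeq. Nuclei were not used here, and 1 named gene is not reported here. Alternatives covered the test, scaling, filters, cells, thinning, batch and each mouse left out.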

Additional observations from a re-analysis of the deposited data

Results flagged for a closer look

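Among 178 sets of 6 mice checked for a single far value, 9 had one, and chance gives about 1 in 20. FGF1 replicate 10, with the fewest cells, was far from the others for 3 genes. Its Cox6a1 level was 539 CPM against 756 to 863 in the other FGF1 mice, its Vcam1 level 88.8 against 34.7 to 51.8, and its Cntn1 level 1301 against 1147 to 1195. Vehicle replicate 29 had 41.2 CPM of Flywch2 against 51.6 to 57.6, and vehicle replicate 27 had 87.0 CPM of Gm5914 against 41.0 to 56.1. Vehicle replicate 35 had 1282 summed CPM of the 4 committed precursor markers against 961 to 1077, and FGF1 replicate 6 had 317 summed CPM of microglia markers against 125 to 190. The summed CPM of antigen presentation and interferon genes was 4776 in FGF1 replicate 6 (others 1275 to 2177) and 3884 in vehicle replicate 22 (others 936 to 1218), and these mice are the pair of batch 3.

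The FGF1 effect in cluster 5 differed from that in COP-like cluster 9 by an interaction test for Fabp7 (log2 difference 1.24), Cntn1 (1.17), Egr1 (1.73), Pcdh15 (1.36), Cox6a1 (-0.54), Neu4 (-0.65), Bcan (-0.50), S100a1 (-0.76), S100a16 (-0.68), Sirt2 (-0.70), Bcas1 (-0.63) and Mbp (-0.75). With RLE scaling, the FDR of Neu4, Bcas1, Bcan, Cox6a1 and Mbp was 0.113, 0.0745, 0.276, 0.169 and 0.410. With DESeq2 the adjusted p was 0.00930 for Fabp7, 3.09e-07 for Cntn1, 0.00810 for S100a1 and 0.0241 for Sirt2, and 0.0553 or more for the other 8. With no filter on low counts the FDR of Pcdh15 and Egr1 was 0.119 and 0.0647. With each mouse left out in turn, Bcan kept the call in 4 of 12 fits and Pcdh15 and Egr1 in 7 each. Neu4 and Cox6a1 kept it in 8 each, Bcas1 in 11 and the rest in 12. Against oligodendrocyte-like cluster 2 it differed for Rplp0 (0.50), Rps4x (0.36), Rps9 (0.38), Gm14305 (1.17) and S100a16 (-0.45). With RLE scaling the FDR of Rps4x and Gm14305 was 0.0532 each, and with each of the 12 mice left out in turn Rps4x, Rps9 and Gm14305 kept the call in 1, 3 and 3 fits. Against astrocyte-like cluster 1 it differed for Fabp7 (0.93), Ldha (0.89), Rplp0 (0.50), Col11a2 (-1.63), Extl1 (-1.40) and Sirt2 (-0.70). With no filter on low counts the FDR of Sirt2 was 0.0988, and with each mouse left out in turn the call was kept in 8 of 12 fits for Rplp0, 10 for Col11a2, 11 each for Ldha, Extl1 and Sirt2, and 12 for Fabp7. Those of the genes listed here that were called in cluster 5 had been picked for their effect there, which by itself favours a difference.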

How the results depend on the processing

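The 125 calls of cluster 5 became 215 with no filter on low counts, 62 with cells thinned to 800 UMIs and 12 with an absolute log2 fold change above 1. With a mouse left out they ranged from 33 to 280. The counts were 33, 78, 74 and 58 without FGF1 replicates 7, 6, 21 and 10, 189 without FGF1 replicate 28, 77, 54 and 45 without vehicle replicates 22, 20 and 25, and 280 without vehicle replicate 35. DESeq2, RLE scaling, the stricter filter, the 20% limit, the merge with cluster 17 and the batch term gave 126, 119, 119, 119, 179 and 178. No named gene that was called changed direction in any alternative run, and 13 of 42 kept the call in each that tested them, among them Fabp7, S100a10, S100a6, Ccnd1 and C1ql1.

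The difference from cluster 9 gave 60 genes with RLE scaling, 651 with no filter and 25 with DESeq2, and 54 to 100 with a mouse left out. That from cluster 2 gave 24 to 83, and that from cluster 1 gave 101 with no filter and 28 to 143. The difference in cycling share was 3.90 percentage points and 3.02 to 4.37 with a mouse left out, and 5.29 without thinning and 1.58 with 3 UMIs required, where it was no longer significant. The share with a committed precursor UMI differed by -10.4 points, and by -11.4 to -9.47 with a mouse left out. It differed by -6.40 at 500 UMIs and by -8.38 without thinning, and was no longer significant in either. Counted over clusters 5 and 9 together, the share with such a UMI was higher in FGF1 cells (70.1% against 58.1%, no test). The merge with cluster 17 for both shares was chosen after seeing the data and used a new random draw for the thinning. By replicate number, no paired analysis was possible because the labels of these 12 mice share none between groups. The metadata put 1 mouse of each group in every batch, so batch was used as a term in the gene fit and to pair the mice for the shares. Paired within batch, a test chosen after seeing the data, the differences of 3.90 and -10.4 points had adjusted p-values of 0.0625 each and were no longer significant. Before adjustment both were at the smallest p that exchanges within 6 pairs can give. The median cell of a mouse held 996 to 1983 UMIs, and of 43 S and G2/M genes in the file 2 passed the filter on low counts. The cause was not tested.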
